A study of Homo sapiens with 4 samples.

Results

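Small nucleolar RNA host genes are the 31 of 60662 rows in the count table whose symbol is SNHG followed by a number, GAS5, ZFAS1 or EPB41L4A-AS1. The rule uses names only. RNA was sequenced from U937, an established human myeloid cell line from a histiocytic lymphoma, cultured for 72 h either without addition or in 10 nM PMA (phorbol 12-myristate 13-acetate), which switches on protein kinase C. Both groups were grown in RPMI medium with fetal bovine serum and antibiotics, and the treatment was meant to turn the cells into macrophage-like cells. There were 4 libraries, 1 untreated and 1 PMA library from each of 2 lots of cells. All 4 come from a single cell line, and the labels do not say whether the lots were cultured apart, so the spread between lots may be technical.

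The host genes are named for what sits in their introns. Small nucleolar RNAs (snoRNAs) are trimmed from the spliced introns and guide chemical marks on ribosomal RNA: box C/D snoRNAs direct ribose methylation and box H/ACA snoRNAs direct pseudouridylation. The spliced exons form a long non-coding RNA that is often short-lived, because many of these transcripts are translated over short reading frames and then removed by nonsense-mediated decay. Several host genes start with a terminal oligopyrimidine (TOP) tract, as the mRNAs of ribosomal proteins do, which couples translation to growth signalling. GAS5 was named growth arrest-specific because its RNA builds up when cells stop growing.

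The bases around the transcription start are printed for 8 members, 7 with a pyrimidine run near the start and 1 without, to show where such a run lies. The RefSeq promoter table (GRCh38.p14) held 27 of the 31 members. Each line gives 60 bases, 5′ to 3′ on the gene's strand, the first 30 of them before the annotated start. Capitals mark the longest run of C and T that starts with C between 10 bases before and 20 bases after the start.
ZFAS1, chr20:49278612-49278671, plus strand: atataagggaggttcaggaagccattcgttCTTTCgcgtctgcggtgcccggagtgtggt
SNHG5, chr6:85678704-85678763, minus strand: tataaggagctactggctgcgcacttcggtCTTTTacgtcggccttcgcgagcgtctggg
SNHG19, chr16:2155329-2155388, minus strand: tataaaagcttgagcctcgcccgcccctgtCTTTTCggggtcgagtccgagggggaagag
SNHG32, chr6:31834886-31834945, plus strand: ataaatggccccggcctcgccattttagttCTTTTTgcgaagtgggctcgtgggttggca
SNHG7, chr9:136728155-136728214, minus strand: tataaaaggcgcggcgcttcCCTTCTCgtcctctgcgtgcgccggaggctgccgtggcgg
SNHG8, chr4:118278732-118278791, plus strand: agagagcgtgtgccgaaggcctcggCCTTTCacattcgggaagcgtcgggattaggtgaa
SNHG16, chr17:76557734-76557793, plus strand: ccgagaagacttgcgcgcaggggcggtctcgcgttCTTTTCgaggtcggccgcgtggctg
EPB41L4A-AS1, chr5:112160496-112160555, plus strand: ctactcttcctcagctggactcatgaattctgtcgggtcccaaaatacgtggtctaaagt

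Among the printed sequences, the run began at the first transcribed base in ZFAS1, SNHG5, SNHG19 and SNHG32. Of the members not printed, SNHG4 alone had such a start. In EPB41L4A-AS1 no run of 5 or more bases was found. A run of at least 5 bases, starting anywhere in the window searched, was present in 18 of the 27 members (66.7%), against 41.6% of all 35116 promoters in the table. Runs of at least 8 bases were in 4 of the 27 (14.8%), against 11.3% of all promoters. GAS5 and SNHG1 were among the members without a run of 5 or more bases. The letters TATAA on the gene's strand, 40 to 21 bases before the start, were found in 6 of the 27 (22.2%), against 3.77% of all promoters. This motif was searched after the sequences had been seen. The MYC-type E-box CACGTG, which reads the same on both strands, was found in 2 members, SNHG7 and SNHG30 (7.41%, against 7.26% of all promoters). The starts are those of RefSeq and were not measured in these cells.

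Library totals were 35739833 to 54915928 counts. The macrophage markers fixed for checking the labels (ITGAX, ITGAM, CD14, CD68 and CD163) all rose with PMA in both lots, 5 of 5 by edgeR. Myeloid markers fixed with them were SPI1, CD33, PTPRC, ITGB2, LYZ and CSF3R. Of these 6, edgeR called 1 higher, ITGB2, and 0 lower (all tested genes: 4.29% higher and 2.02% lower). In both lots 3 of the 6 were higher with PMA and 1 was lower. Of 12 markers of lymphoid, erythroid, epithelial, stromal and liver cells, 9 were at 0 in all libraries, and their summed level was 7.04 and 10.0 CPM without PMA and 4.79 and 8.91 CPM after PMA. In these bulk libraries, fewer cells of a type and less RNA per cell cannot be told apart.

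The host genes as a group took a smaller part of the RNA in both PMA libraries. Their summed counts were 0.261% and 0.171% of all counts in untreated lots 1 and 2, and 0.0559% and 0.0869% in PMA lots 1 and 2. The share was 4.66-fold lower with PMA in lot 1 and 1.96-fold lower in lot 2, so the 2 lots differed in size but not in direction. Group means were 0.216% ± 0.0637 and 0.0714% ± 0.0219 (SD, n = 2 each). Within the host gene counts, SNHG29 made up 33.7% and 23.1% in untreated lots 1 and 2, and 28.8% and 22.1% in PMA lots 1 and 2. GAS5 made up 17.4% and 14.9% untreated and 11.1% and 16.1% with PMA, a smaller part in lot 1 and a larger one in lot 2. SNHG16 took a larger part in both lots, 16.9% and 10.7% with PMA against 2.57% and 6.07% untreated.

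**Figure D1:**
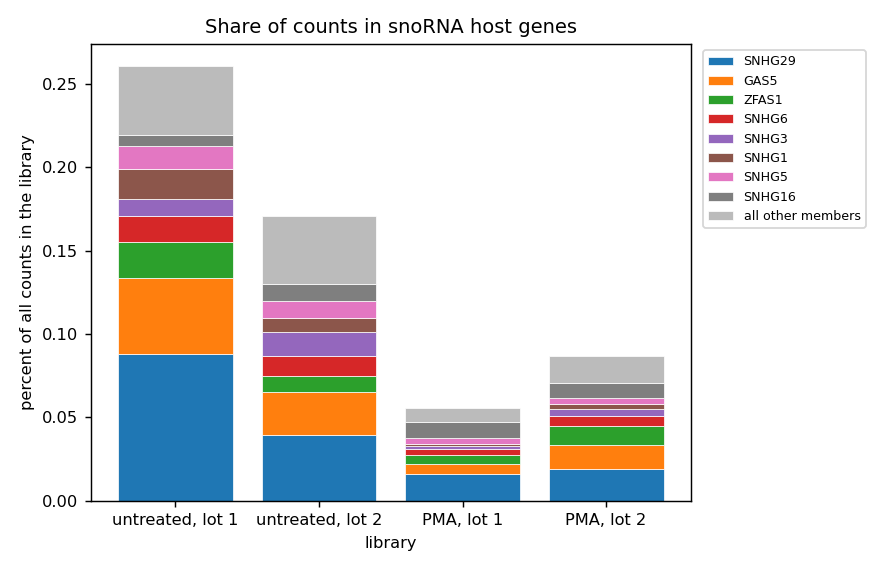
Stacked bars give the percent of all counts in each library (vertical axis) that fell in host genes, by gene, for the 4 libraries. The bars of the untreated libraries reach 0.261% and 0.171%, and those of the PMA libraries 0.0559% and 0.0869%; the SNHG16 segment keeps a similar height while most others shrink.

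Of the 31 members, 27 passed the filter on low counts and were tested, 15 of them at 10 CPM or more on average. Levels are normalised CPM, in which counts are divided by the TMM-scaled library size. With edgeR's quasi-likelihood test and p-values adjusted by Benjamini-Hochberg over all 16451 genes, 0 of 27 passed at 0.05 in either direction, against 2.02% of all tested genes called lower and 4.29% called higher. At an unadjusted p under 0.05, 13 members were lower and 0 higher (all tested genes: 12.5% lower and 14.6% higher). DESeq2 called 12 of 27 lower and 0 higher at an adjusted p under 0.05 (all genes: 10.3% lower and 13% higher), and limma-voom called 4 lower and 0 higher (all genes: 3.87% and 6.98%). The fitted log2 fold change was negative in 26 of 27 members, with a median of −1.40, while the median over all tested genes was 0.00.

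Other settings of the edgeR fit called few members, and none higher. SNHG8 alone was called with RLE factors (all genes: 1.93% lower, 4.27% higher), with upper-quartile factors (2.39% and 3.77%) and without a filter (1.38% and 2.91%). With a filter of 5 CPM in 2 libraries 7 of 20 were called lower (all genes: 6.65% and 8.98%), and with the lot as a block 0 of 27 (1.48% and 3.59%). Without untreated replicate 1 the count was 5 of 28 (6.21% and 10.5%) and without untreated replicate 2 it was 2 of 27 (2.49% and 4.94%). It was 0 of 27 without PMA replicate 1 (1.51% and 2.54%) and 0 of 28 without PMA replicate 2 (0.438% and 2.35%).

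The direction was shared by most members. Of the 27, 20 were lower with PMA in both lots and 1 was higher in both, against 35.9% and 37.8% of all tested genes. In 17 members both PMA libraries lay below both untreated libraries and in 1 both lay above, against 29.4% and 31% of all tested genes. The authors' deposited table gave 0 of 31 members a q-value under 0.05 (all rows: 0.742% lower and 1.48% higher), and its smallest member q-value was 0.0665, for SNHG1.

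**Figure D2:**
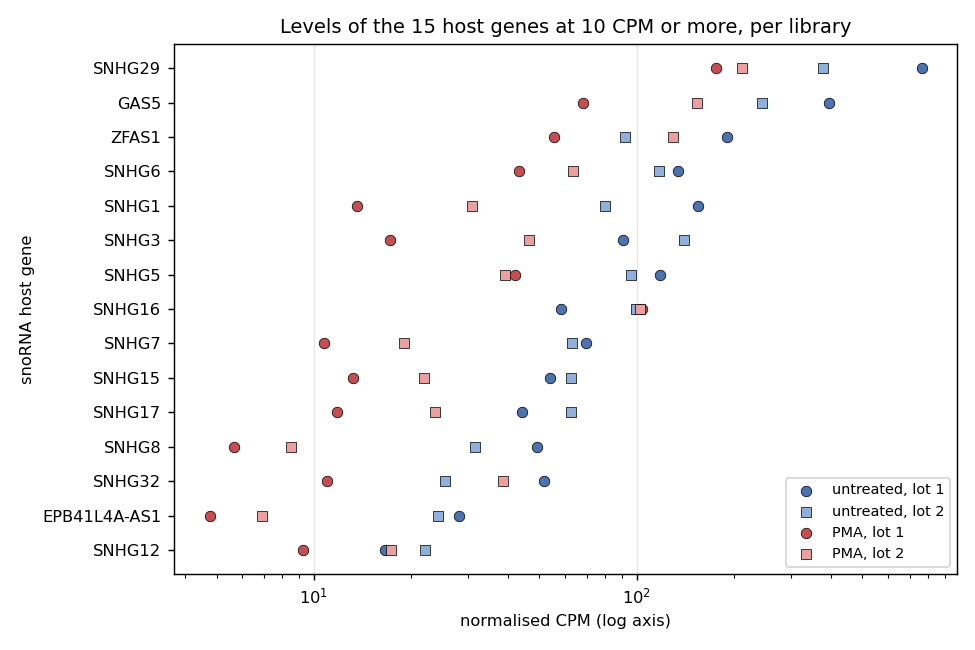
Normalised CPM (horizontal, log axis) of the 15 host genes at 10 CPM or more, with 1 point per library: blue without PMA, red with PMA, circles lot 1 and squares lot 2. In 11 genes both red points lie left of both blue points; ZFAS1, SNHG32 and SNHG12 overlap, and SNHG16 has its red points on the right.

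Among hosts of box C/D snoRNAs, SNHG29 (ENSG00000175061.18) was the most abundant, with 764 and 378 CPM in untreated lots 1 and 2 and 176 and 211 CPM with PMA. Both PMA values were below both untreated ones, and the log2 fold change was −1.56 ± 0.44 (SE; edgeR adjusted p = 0.0952, DESeq2 adjusted p = 0.00628). GAS5 (ENSG00000234741.8), which carries a row of box C/D snoRNAs and whose spliced RNA can bind the glucocorticoid receptor, was at 394 and 244 CPM untreated and at 68.0 and 154 CPM after PMA. It was lower in both lots, 5.80-fold in lot 1 and 1.59-fold in lot 2, and the fit gave −1.53 ± 0.52 (edgeR adjusted p = 0.142, DESeq2 adjusted p = 0.0239). The CDK inhibitor CDKN1A, a marker of growth arrest, rose from 5.74 and 7.16 to 1151 and 1200 CPM (edgeR adjusted p = 0.0148).

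SNHG1 (ENSG00000255717.7), host of a cluster of box C/D snoRNAs, was at 155 and 79.6 CPM untreated and at 13.6 and 30.9 CPM after PMA. The groups did not overlap, and the difference was 11.4-fold in lot 1 and 2.57-fold in lot 2 (log2 fold change −2.39 ± 0.59, edgeR adjusted p = 0.0769). SNHG5 (ENSG00000203875.13) was at 118 and 96.3 CPM and at 42.1 and 39.2 CPM, with nearly the same ratio in both lots (2.80 and 2.46). SNHG6 (ENSG00000245910.8) was at 134 and 117 CPM untreated and at 43.2 and 63.7 CPM after PMA, again without overlap. Their log2 fold changes were −1.40 ± 0.33 and −1.23 ± 0.35 (edgeR adjusted p = 0.0693 and 0.100). SNHG19 (ENSG00000260260.1), the least abundant of these hosts, was at 9.41 and 17.3 CPM and at 2.61 and 1.97 CPM, and had the lowest fitted value of all tested members, −2.55 ± 0.60 (edgeR adjusted p = 0.0703). It differed more in lot 2 (8.81-fold) than in lot 1 (3.61-fold), the opposite order to SNHG1.

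ZFAS1, SNHG32 and SNHG16, which also host box C/D snoRNAs, showed no shared direction. ZFAS1 (ENSG00000177410.13), transcribed antisense to the helicase-like gene ZNFX1, was at 191 and 92.0 CPM untreated and at 55.4 and 130 CPM after PMA. SNHG32 (ENSG00000204387.14), annotated as protein-coding in GENCODE 29, was at 51.5 and 25.4 CPM and at 11.0 and 38.5 CPM. Both were lower with PMA in lot 1 and higher in lot 2, so the groups overlapped (edgeR adjusted p = 0.569 and 0.639). SNHG16 (ENSG00000163597.15) was at 58.2 and 99.2 CPM untreated and at 104 and 102 CPM after PMA. Both PMA values were above both untreated ones, yet the lot 2 pair differed by only 0.04 on the log2 scale and the fit gave 0.39 ± 0.38 (edgeR adjusted p = 0.582). Without untreated replicate 1 its log2 fold change was −0.0071.

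Among hosts of box H/ACA snoRNAs, SNHG8 (ENSG00000269893.8) was at 49.3 and 31.6 CPM untreated and at 5.68 and 8.52 CPM after PMA, a difference of 8.68-fold and 3.71-fold in the 2 lots. Its adjusted p was the smallest of all members (log2 fold change −2.51 ± 0.48, edgeR adjusted p = 0.0504) and missed the threshold narrowly. It passed in 8 of 11 alternative fits, in which the adjusted p ran from 9.93e-06 to 0.254. SNHG7 (ENSG00000233016.7) was at 69.6 and 63.2 CPM and at 10.8 and 18.97 CPM (−2.16 ± 0.44, edgeR adjusted p = 0.0558). EPB41L4A-AS1 (ENSG00000224032.7), which lies within the cytoskeletal linker gene EPB41L4A on the opposite strand in GENCODE 29, was at 28.1 and 24.3 CPM and at 4.76 and 6.92 CPM (−2.16 ± 0.46, edgeR adjusted p = 0.0592). In each of these 3 genes both untreated values lay above both PMA values.

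SNHG3 (ENSG00000242125.3) was at 90.5 and 140 CPM untreated and at 17.2 and 46.3 CPM after PMA (−1.86 ± 0.59, edgeR adjusted p = 0.123). SNHG15 (ENSG00000232956.9) was at 54.0 and 62.4 CPM and at 13.2 and 22.02 CPM (−1.73 ± 0.42, edgeR adjusted p = 0.0759). SNHG17 (ENSG00000196756.13) was at 44.2 and 62.6 CPM and at 11.8 and 23.8 CPM (−1.59 ± 0.50, edgeR adjusted p = 0.121). All 3 separated the groups. SNHG12 (ENSG00000197989.14), which carries snoRNAs of both classes, did not: it was at 16.6 and 22.1 CPM and at 9.27 and 17.3 CPM (−0.54 ± 0.50, edgeR adjusted p = 0.560). SNHG4, SNHG9 and SNHG10, which also carry box H/ACA snoRNAs, were under 10 CPM on average and had log2 fold changes of −0.39, −0.83 and −1.77 (edgeR adjusted p = 0.722, 0.720 and 0.223).

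**Figure D3:**
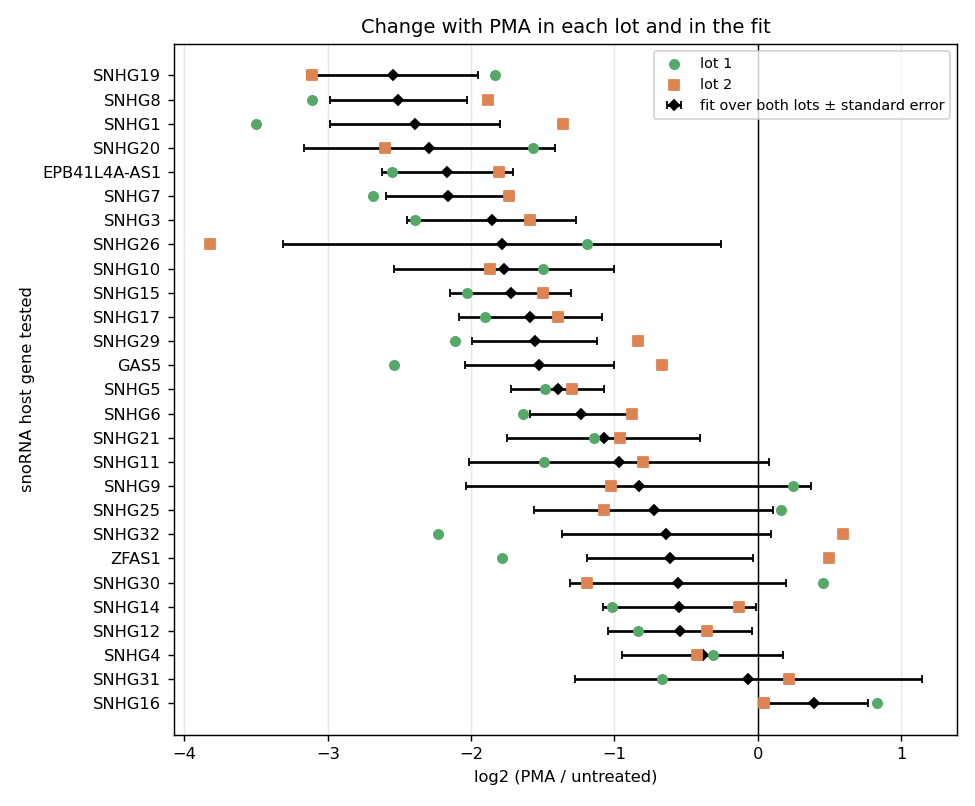
Log2 ratio of PMA to untreated (horizontal axis) for the 27 tested host genes, in lot 1 (green circles), in lot 2 (orange squares) and in the fit over both lots (black diamonds with standard errors). Most pairs lie left of 0, green usually further left among the abundant genes; ZFAS1 and SNHG32 have their lots on opposite sides of 0.

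The log2 change was more negative in lot 1 than in lot 2 in 18 of the 27 tested members, against 54.6% of all tested genes. It was so in 14 of the 15 members at 10 CPM or more and in 4 of the 12 less abundant ones. Untreated lot 1 was above untreated lot 2 in 10 of the 15, and PMA lot 1 was below PMA lot 2 in 13. The median log2 change over the 27 tested members was −1.57 in lot 1 and −1.07 in lot 2, while the medians of all tested genes were −0.04 and 0.09. Mitochondrial transcripts also took a different part of the counts by lot (3.66% and 2.81% in lot 1, 8.58% and 5.99% in lot 2, untreated and PMA). With mitochondrial and the 20 most abundant genes left out of the library size, the host gene share was 4.41-fold lower with PMA in lot 1 and 1.94-fold lower in lot 2. Over the TMM-scaled library size the share was 3.70-fold and 1.71-fold lower. The part of mitochondrial content in the values of single host genes was not tested.

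The 12 tested members under 10 CPM on average (SNHG19 included) were measured less precisely. SNHG20 was at 1.99 and 5.22 CPM untreated and at 0.644 and 0.822 CPM after PMA (−2.29 ± 0.88, edgeR adjusted p = 0.179). SNHG10 was at 4.86 and 12.7 CPM and at 1.69 and 3.44 CPM (edgeR adjusted p = 0.223). In both genes the groups did not overlap, although the untreated lots differed by more than 2-fold. SNHG9, SNHG25 and SNHG30 were lower with PMA in lot 2 and higher in lot 1. The other 6 (SNHG4, SNHG11, SNHG14, SNHG21, SNHG26 and SNHG31) had adjusted p-values of 0.386 to 0.979. Of the 4 members not tested, SNHG18 and SNHG28 were at 0 in all libraries, SNHG27 had 1 count in untreated lot 2, and SNHG22 had 14 counts there and 2 in PMA lot 1.

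Levels can be compared between genes only per length, here the longest transcript in GENCODE 29. Without PMA, SNHG29 had 460 and 228 CPM per kb, GAS5 232 and 144, SNHG6 207 and 181, ZFAS1 177 and 85.6, and SNHG5 114 and 93.3 CPM per kb. In each untreated library SNHG29 was highest and GAS5 was above ZFAS1, whereas SNHG6 was below GAS5 in lot 1 and above it in lot 2. SNHG16 had 16.1 and 27.5 CPM per kb without PMA and 28.8 and 28.4 with it. With PMA, SNHG29 (106 and 127), ZFAS1 (51.5 and 121) and SNHG6 (66.7 and 98.3) were highest.

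The snoRNAs themselves were hardly seen. Of 48 snoRNAs listed for 17 hosts, 34 were matched in the table by symbol, in 36 rows, and none of those listed for GAS5 was matched. In 26 rows no library had more than 1 count, and 2 were tested, both from SNHG3. Its snoRNA SNORA73A had 11 and 73 counts without PMA and 35 and 87 with it, higher relative to library size in both lots, while the host was lower. SNORA73B had 18 and 10 counts without PMA and 6 and 17 with it, lower in lot 1 and higher in lot 2. Selection of poly(A) RNA does not retain mature snoRNAs, so these counts do not measure them.

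Proteins that bind snoRNAs were mostly lower too. Of the 8 core proteins of snoRNA particles, 2 fell and 0 rose by edgeR, against 2.02% of all tested genes called lower, and the median log2 fold change was −1.72. The rRNA methyltransferase FBL, the box C/D enzyme, fell from 193 and 401 CPM to 31.6 and 28.0 CPM (−3.32 ± 0.48, adjusted p = 0.0310). The pseudouridine synthase DKC1, the box H/ACA enzyme, fell from 173 and 268 CPM to 40.3 and 43.8 CPM (−2.39 ± 0.37, adjusted p = 0.0351). Here the lots stood in the other order: 0 of the 8 had the more negative change in lot 1. Of 13 assembly factors, 3 fell (RUVBL2, −2.66 ± 0.34; RUVBL1, −2.64 ± 0.45; NOLC1, −1.79 ± 0.29; adjusted p = 0.0270, 0.0402 and 0.0382) and 0 rose, with a median of −0.59. Without PMA replicate 1, and likewise without PMA replicate 2, 0 of the 8 and 0 of the 13 passed, and blocking on lot gave an adjusted p of 0.0571 for RUVBL1 and 0.0532 for NOLC1.

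Protein-coding genes that carry snoRNAs were read for comparison. Of 45 such genes, 8 fell and 0 rose by edgeR (all genes: 2.02% lower and 4.29% higher), with a median log2 fold change of −1.19. DESeq2 called 31 lower and 1 higher (all genes: 10.3% and 13%). DKC1, NOP56 and NOP58 are also among the core proteins above, and DKC1 is among the 8, so the lists are not independent. The ribosomal protein genes RPSA (2598 and 2270 CPM to 582 and 596 CPM, −2.05 ± 0.28, adjusted p = 0.0281) and RPL3 (2248 and 2230 to 631 and 632 CPM, adjusted p = 0.0320) fell. Nucleolin, NCL, was at 424 and 900 CPM and at 191 and 219 CPM (adjusted p = 0.0874). Of 21 other TOP mRNAs, 5 fell, with a median of −1.24, and 1 rose: VIM, the intermediate filament gene, went from 247 and 265 to 3494 and 4593 CPM (adjusted p = 0.0166). EEF1A1, a classical TOP mRNA, was at 8225 and 5734 CPM and at 6063 and 4878 CPM (adjusted p = 0.536). In the blocked fit 4 of the 45 and 1 of the 21 were called lower. Without PMA replicate 1 or 2 in turn the counts were 0 in both lists, and without untreated replicate 1 they were 22 and 10. Reads of ribosomal protein genes can be shared with their many pseudogenes.

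**Figure D4:**
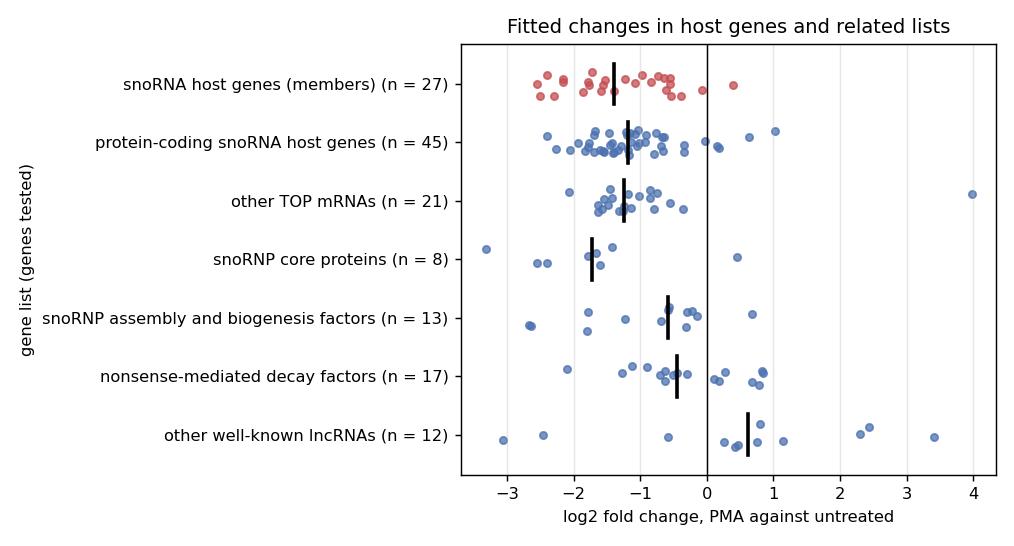
Fitted log2 fold changes with PMA (horizontal axis) of single genes, 1 row of points per gene list, with a black bar at each list's median. The members and the protein-coding snoRNA hosts, TOP mRNAs and core proteins have medians of −1.40, −1.19, −1.24 and −1.72, and the other well-known long non-coding RNAs a median of 0.61. DKC1, NOP56 and NOP58 appear both among the protein-coding hosts and among the core proteins.

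Other long non-coding RNAs had a median near that of all genes. Among 110 of them at 10 CPM or more, the median log2 fold change was 0.20. In both lots 33 were lower and 55 higher (all tested genes: 35.9% and 37.8%), and 2 fell and 8 rose by edgeR (2.02% and 4.29%). The 15 host genes at 10 CPM or more had a median of −1.56, with 12 lower in both lots and 1 higher. Of all genes at that level, 35.8% were lower in both lots. MALAT1, a nuclear-retained transcript, rose from 28.1 and 16.6 to 250 and 224 CPM (3.41 ± 0.41, adjusted p = 0.0253). It was 1 of 12 tested in a list of well-known long non-coding RNAs. In that list edgeR called 0 lower, while DESeq2 called 2 lower and 2 higher (all genes: 10.3% lower and 13% higher). PVT1 was at 11.2 and 26.8 CPM untreated and at 2.58 and 1.99 CPM after PMA (−3.06 ± 0.65, edgeR adjusted p = 0.0609, DESeq2 adjusted p = 1.35e-04). DANCR, in the same list, also carries a snoRNA but lies outside the naming rule. It was at 19.2 and 38.9 CPM and at 5.40 and 5.13 CPM (edgeR adjusted p = 0.0618, DESeq2 adjusted p = 2.80e-04).

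Nonsense-mediated decay removes many spliced host transcripts, and its factors were listed for that reason. Of 17 factors, 0 passed edgeR's test (3 lower and 0 higher at an unadjusted p under 0.05), with a median log2 fold change of −0.45. DESeq2 called 2 lower and 0 higher (all genes: 10.3% lower and 13% higher). With upper-quartile factors, with the filter of 5 CPM in 2 libraries and with limma-voom, 1 was called lower each time. The helicase UPF1 was at 176 and 152 CPM untreated and at 134 and 107 CPM after PMA (adjusted p = 0.433). UPF3B, the factor that bridges to the exon junction complex, was at 34.9 and 36.5 CPM and at 7.24 and 9.37 CPM (edgeR adjusted p = 0.0504, DESeq2 adjusted p = 1.84e-05). Of 8 coding transcripts known as decay targets, 1 rose, UPP1, a uridine phosphorylase (9.08 and 11.1 to 305 and 418 CPM, adjusted p = 0.0161), and 0 fell.

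Of 9 regulators of growth and TOP translation, edgeR called 2 lower and 0 higher (all genes: 2.02% and 4.29%). DESeq2 called 2 lower and 1 higher (all genes: 10.3% and 13%). Their median log2 fold change was 0.18, with 4 lower and 5 higher in both lots (all tested genes: 35.9% and 37.8%). MYC, whose protein drives ribosome production, fell from 330 and 364 to 47.2 and 40.3 CPM, and EIF4EBP1, the mTOR-controlled translation repressor, from 348 and 395 to 32.1 and 51.0 CPM (adjusted p = 0.0224 and 0.0253). Without PMA replicate 1 the values were 0.0524 and 0.0647, and MYC was at 0.0896 without PMA replicate 2. The proliferation marker MKI67 fell from 246 and 338 to 28.9 and 8.67 CPM (adjusted p = 0.0426, or 0.0546 in the blocked fit, 0.0671 without PMA replicate 2 and 0.0563 without untreated replicate 2).

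Genes that overlap or adjoin a member had 9 tested rows. In these, 1 rose and 0 fell by edgeR (all genes: 4.29% higher and 2.02% lower). DESeq2 called 1 lower and 1 higher (all genes: 10.3% and 13%). MATR3 was in separate rows, with fitted log2 fold changes of 0.34 and −0.87 (edgeR adjusted p = 0.661 and 0.789). ZNFX1, opposite ZFAS1, rose from 41.0 and 43.2 to 292 and 219 CPM (2.60 ± 0.33, adjusted p = 0.0265, but 0.105 and 0.0638 without PMA replicates 1 and 2 in turn). ZFAS1 was 3.44-fold lower with PMA in lot 1 and higher in lot 2 (log2 change −1.78 and 0.49), while ZNFX1 was higher in both (2.83 and 2.34). RCC1, the nuclear exchange factor whose locus overlaps SNHG3, was at 140 and 216 CPM and at 42.1 and 51.4 CPM (adjusted p = 0.0516), lower in both lots as SNHG3 was, and SLC3A2, beside SNHG1, was at 175 and 267 CPM and at 329 and 287 CPM (adjusted p = 0.450). EPB41L4A was at 0 in all libraries. No source used here gives the strand setting of the counting, so reads of ZFAS1 and ZNFX1, or of SNHG3 and RCC1, may not be fully separated.

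GAS5 RNA is known as a decoy for the glucocorticoid receptor, so the receptor and 4 of its target genes were read beside it. The receptor gene NR3C1 was at 63.9 and 21.8 CPM untreated and at 198 and 134 CPM after PMA, higher in both lots but not past the test (1.95 ± 0.61, adjusted p = 0.118; DESeq2 adjusted p = 0.00764). The targets did not all share a direction. SGK1 rose from 7.10 and 7.12 to 584 and 790 CPM (adjusted p = 0.0148), while FKBP5 fell from 109 and 58.8 to 12.5 and 14.6 CPM (adjusted p = 0.0423). PER1 was higher in both lots, from 15.9 and 11.7 to 42.1 and 56.7 CPM (edgeR adjusted p = 0.0636, DESeq2 adjusted p = 2.59e-04). TSC22D3 had a fitted log2 fold change of 1.32 (edgeR adjusted p = 0.341), with −0.15 in lot 1 and 2.96 in lot 2. FKBP5 did not pass in the blocked fit (adjusted p = 0.0588) or without PMA replicates 1 and 2 in turn (0.183 and 0.187).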

How the data were processed

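The authors deposited estimated counts per gene (whole numbers, not scaled) and a second table with a normalised signal (the counts times 1 factor per library), a log2 ratio, a mean log2 level, p-values and q-values, with no test named in any source used here. Per the submitters' processing notes, HISAT2 2.1.0 and StringTie 2.1.1 were used, without stated roles; no source used here names build, annotation or strand. Libraries were grouped by their titles. The table held 60662 rows; edgeR 4.0.16 (R 4.3.3; TMM, filterByExpr, quasi-likelihood test, Benjamini-Hochberg at 0.05) tested 16451. Per-lot log2 ratios used a prior count of 2. DESeq2 1.42.0, limma-voom (limma 3.58.1), other factors, filters, leave-one-out fits and a lot block were alternatives. Lots pair the libraries, per the labels' titles, and deviations of same-lot libraries correlated at 0.154 across genes. Levels under 3 counts (0.0475 to 0.0921 CPM) cannot be told from 0, for counting error only. Members with a mean of 10 CPM or more were named, with 3 others of smallest p, and from other lists the called genes of smallest p and MYC, CDKN1A, MKI67, FBL, UPF1, NCL and EEF1A1. NR3C1, PER1, TSC22D3, RCC1, SLC3A2, MATR3, EPB41L4A, DANCR, PVT1, NOP56 and NOP58 were named after their values were seen. Members and lists were chosen with earlier results of these data known. Gene types and lengths came from GENCODE 29, in which all 31 members matched. The fits measure spread between 2 libraries a group.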

Additional observations from a re-analysis of the deposited data

Results flagged for a closer look

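In 6 of the 27 tested members the lots moved in opposite directions with PMA, with 1 library per lot and treatment, so the difference between lots was not tested. The log2 change in lot 2 minus that in lot 1 was 2.82 for SNHG32 and 2.28 for ZFAS1, which were lower with PMA in lot 1 and higher in lot 2. It was 0.88 for SNHG31, which had 5 to 24 counts per library. It was −1.23 for SNHG25, −1.64 for SNHG30 and −1.27 for SNHG9, which were higher in lot 1 and lower in lot 2. The last 3 were at 2.85, 2.39 and 1.39 CPM in untreated lot 1 and at 11.3, 6.82 and 12.3 CPM in untreated lot 2. With PMA they were at 3.19, 3.28 and 1.66 CPM in lot 1 and at 5.36, 2.96 and 5.99 CPM in lot 2.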

How the results depend on the processing

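The count of members called lower was 0 with edgeR and stayed 0 with the replicate block (lot) and at an adjusted p under 0.01. It was 1 with RLE factors (all genes: 1.93% lower), 1 with upper-quartile factors (2.39%) and 1 without a filter (1.38%), SNHG8 each time. The count was 4 with limma-voom (all genes: 3.87% lower), 7 of 20 with a filter of 5 CPM in 2 libraries (6.65%) and 12 with DESeq2 (10.3%). Limma-voom, the 5 CPM filter and DESeq2 also called a larger percent of all genes lower than the main fit did (2.02%). RLE factors and the fit without a filter called a smaller percent. Leaving out each library gave 0 to 5: 5 without untreated replicate 1, 2 without untreated replicate 2, and 0 without either PMA replicate. By direction alone, 20 were lower and 1 higher in both lots, against 35.9% and 37.8% of all tested genes. No member was called higher in any fit run. Upper-quartile factors moved the median of all genes to −0.165 and that of the members to −1.56. Signs turned in leave-one-out fits, over which the log2 fold change ran from −1.19 to 0.39 for SNHG30, −1.47 to 0.59 for SNHG25, −2.02 to 1.45 for SNHG9, −1.18 to 0.48 for SNHG31, −0.79 to 0.055 for SNHG4 and −0.0071 to 0.82 for SNHG16. The turned values came without untreated replicate 2 (0.32 for SNHG31), without PMA replicate 1 for SNHG31 and without untreated replicate 1 for SNHG16. The cause was not tested. Without SNHG29 the members' share was still 4.34-fold and 1.94-fold lower with PMA in lots 1 and 2. With 2 libraries a group a missed threshold does not show equal levels.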
